A study of Mus musculus with 6 samples.

Results

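In cortical progenitors with induced Bcl6, 876 of 3878 Bcl6 peaks (22.6%) were narrow peaks whose centre lay at or just downstream of the transcription start site (TSS) of 1 gene. They were chosen from the authors' peak table and gene list as peaks with exactly 1 listed gene within 1000 bp, a signed distance of 0 or above, and a length of at most 2000 bp. Distance, length and the number of genes near the peak therefore describe the choice and are not findings. Another 676 peaks met the same limits with their centre upstream of the TSS and serve below as the closest comparison, under the name upstream peaks. The 876 are called the downstream peaks.

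Bcl6 is a transcriptional repressor with a BTB domain, which recruits corepressors, and zinc fingers, which bind DNA. In germinal centre B cells it represses checkpoint and differentiation genes, and in the developing cortex it promotes the change from progenitor to neuron. Its preferred DNA sequence resembles that of STAT factors, and many active genes carry their regulatory elements on both sides of the TSS, in CpG-rich DNA.

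The study mapped Bcl6 by chromatin immunoprecipitation and sequencing in mouse embryonic stem cells of the A2 lox.Cre Bcl6 line, which carry a tetracycline-inducible Bcl6 transgene and had been differentiated into cortical progenitors with cyclopamine, a blocker of hedgehog signalling. In all 6 libraries the cells were taken at differentiation day 12 and had been given 1 µg/ml doxycycline for 24 h to induce Bcl6. Of these, 3 came from chromatin precipitated with a Bcl6 antibody and the other 3 from input chromatin, for which the labels list no antibody. All libraries came from this engineered line, the stem cells had been grown on irradiated fibroblasts, and uninduced cells were not analysed here, so that induced and endogenous Bcl6 cannot be told apart. The libraries of each group were pooled before peaks were called, so each peak has 1 value, no replicate error and no test over samples. Peak data give no expression, and the identity of the cells was not checked with markers.

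The sequences of 5 promoters are shown because they differ in where the Bcl6 core lies. Each is the RefSeq promoter of GRCm38.p6 (the same build as mm10), 250 bases before to 50 bases after the annotated gene start, printed 5′ to 3′ on the gene's strand, so the last 50 bases are the start of the first exon. Capitals mark TTCNNNGAA, the core shared by Bcl6 and STAT sites. The first 3 held the core within 34 bp of the peak summit, Bcl6 held it far from the summit, and Rpl22 held none. The windows are 1810037I17Rik at chr3:122924147-122924446 (plus strand), Cish at chr9:107296409-107296708 (plus), Zfp458 at chr13:67268945-67269244 (minus), Bcl6 at chr16:23988803-23989102 (minus) and Rpl22 at chr4:152325476-152325775 (plus).
1810037I17Rik: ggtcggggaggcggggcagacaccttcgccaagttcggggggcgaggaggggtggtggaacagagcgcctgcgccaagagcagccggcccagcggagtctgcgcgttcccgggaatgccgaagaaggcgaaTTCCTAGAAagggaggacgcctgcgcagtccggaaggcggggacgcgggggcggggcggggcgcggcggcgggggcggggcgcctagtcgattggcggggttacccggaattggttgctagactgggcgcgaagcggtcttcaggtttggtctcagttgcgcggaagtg
Cish: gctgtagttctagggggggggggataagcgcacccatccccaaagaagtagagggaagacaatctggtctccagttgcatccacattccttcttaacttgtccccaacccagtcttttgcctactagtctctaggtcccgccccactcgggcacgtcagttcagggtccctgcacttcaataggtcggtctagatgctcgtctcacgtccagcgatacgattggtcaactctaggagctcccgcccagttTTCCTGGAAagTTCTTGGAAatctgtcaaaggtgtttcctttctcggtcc
Zfp458: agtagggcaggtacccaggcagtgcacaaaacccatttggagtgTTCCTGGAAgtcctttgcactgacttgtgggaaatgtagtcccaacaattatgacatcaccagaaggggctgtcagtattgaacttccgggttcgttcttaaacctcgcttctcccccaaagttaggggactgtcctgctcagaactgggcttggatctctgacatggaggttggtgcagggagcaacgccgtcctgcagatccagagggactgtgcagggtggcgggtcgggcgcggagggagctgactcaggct
Bcl6: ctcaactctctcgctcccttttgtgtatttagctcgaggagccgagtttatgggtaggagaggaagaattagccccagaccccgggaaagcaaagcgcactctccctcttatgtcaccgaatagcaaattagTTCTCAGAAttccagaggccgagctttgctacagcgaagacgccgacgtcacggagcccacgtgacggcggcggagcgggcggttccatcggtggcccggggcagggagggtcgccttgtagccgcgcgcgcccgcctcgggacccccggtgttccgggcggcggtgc
Rpl22: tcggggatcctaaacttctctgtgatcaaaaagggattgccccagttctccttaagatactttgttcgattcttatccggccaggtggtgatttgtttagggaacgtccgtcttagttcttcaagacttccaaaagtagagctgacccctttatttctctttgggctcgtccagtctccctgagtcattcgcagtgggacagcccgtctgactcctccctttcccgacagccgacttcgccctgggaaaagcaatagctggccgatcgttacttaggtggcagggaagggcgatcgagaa

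1810037I17Rik had the highest enrichment of all downstream peaks, 81.91-fold over input with 126 tags. Its summit lay 10 bp from the middle of the core TTCCTAGAA in the printed promoter. Cish, which encodes an SH2-domain feedback inhibitor of cytokine receptor signalling, had 235 tags, the most of any downstream peak, at 63.3-fold. The Cish window held 2 cores, TTCCTGGAA beginning at the RefSeq start and TTCTTGGAA just after it, with the summit 9 and 20 bp away. The authors' list placed the Cish TSS 632.5 bp upstream of that RefSeq start. The same peak was thus 746 bp downstream of the listed TSS while its summit lay 5 bases before the RefSeq start. Zfp458, a zinc finger gene, had a smaller peak of 31 tags at 37.43-fold, with TTCCTGGAA 34 bp from the summit.

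Bcl6 itself was among the strongest, with 64.77-fold enrichment, 103 tags and a p-value score (−10 log10 p) of 306.83 on chromosome 16 from 23988367 to 23989268. Its promoter core, TTCTCAGAA, lay 333 bp from the summit, which was 219.5 bp downstream of the listed TSS, beyond the printed window. Rpl22, a ribosomal protein gene, reached 71.0-fold with 154 tags and a summit 147 bp upstream of its listed TSS, without a core in its window. Of the other genes looked up by name, Hes1, Hes5, Ccnd1 and Ccnd2 had no downstream peak, although Hes1 was listed for 2 peaks of other kinds, Ccnd1 for 3 and Ccnd2 for 1.

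Other genes of the top 15 by fold are as follows. Tchp, which encodes a keratin-binding protein of the centriole, had 72.7-fold with 61 tags, and Gcdh, a mitochondrial enzyme of lysine breakdown, had 70.93-fold with 52 tags. Dnajb14, a cochaperone of the endoplasmic reticulum, had 60.09-fold with 210 tags and the highest score of the downstream peaks, 512.36. Epn1, an endocytic adaptor, had 59.11-fold, Amdhd2, an enzyme of amino sugar metabolism, 56.87-fold, and Prr15l 55.85-fold. Ap1g1, a subunit of the AP-1 clathrin adaptor, reached 53.12-fold and Dctn6, a dynactin subunit, 51.23-fold. The top 15 ended with Ccdc110 at 49.26-fold, Rnf187, a ubiquitin ligase gene, at 47.87-fold and Sorbs2, an adaptor of the actin cytoskeleton, at 47.29-fold. Fold and tags ranked these peaks differently. Sorbs2 reached its fold with 32 tags in 559 bp, the shortest of the downstream peaks.

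**Figure D1:**
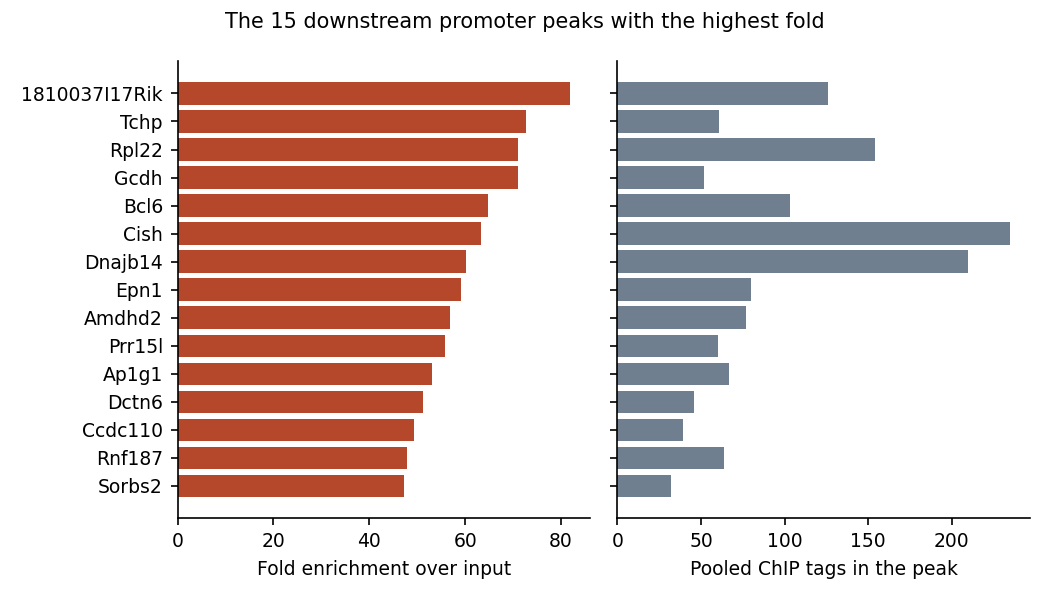
Fold enrichment over input (left, bars from 0) and pooled ChIP tags (right, bars from 0) of the 15 downstream peaks with the highest fold, 1 pooled value per peak without error. 1810037I17Rik leads in fold at 81.91, while Cish with 235 tags and Dnajb14 with 210 tags lead in tags.

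Other peaks stood out by score or tags and not by fold. Hist1h1a, a linker histone gene, had 216 tags, a score of 469.08 and 39.55-fold. Ccdc9 had 42.55-fold and a score of 256.67, Zfp202, a zinc finger gene, 33.24-fold and 208.85, and B4galt5, a galactosyltransferase of glycolipid synthesis, 37.07-fold and 199.53. Tmem87b had 150 tags at 34.93-fold. At the other end, Pafah1b1, the Lis1 gene of neuronal migration, had the lowest fold of the downstream peaks, 9.97 with 87 tags. Ppp1r3e, a glycogen-targeting phosphatase subunit, had 10.48-fold, Rrbp1, a ribosome-binding protein of the endoplasmic reticulum, 10.64-fold, and Ankle1 11.3-fold. Fos, the immediate early transcription factor gene, had 11.12-fold with 73 tags. Each of these 5 peaks of lowest fold held more tags than the Sorbs2 peak. Fold is the ratio to the local input and not a measure of tag number.

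As a whole the downstream peaks were moderate in strength. Their median fold was 21.0 (95% interval of the median 20.2 to 21.3, n = 876), with quartiles of 17.2 and 25.7, against 21.3 over all 3878 peaks. The median tag number was 53.5, from 24 to 235, and the median score 68.6, below the 71.7 of all peaks. A fold of at least 30 was reached by 113 downstream peaks (12.9%, exact 95% binomial interval 10.8 to 15.3), against 17.6% of all peaks. A fold of at least 50 was reached by 12 (1.37%), against 3.15%, and a fold of at least 20 by 478 (54.6%), against 55.1%. Scores at or above the median of all peaks were found for 378 (43.2%), against 50.0%, and the authors' FDR was at most 5% for 875, against 99.0% of all peaks. The single downstream peak above 5%, at 6.06%, was that of Dnajb14, which had the highest score.

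Downstream and upstream peaks differed little in the middle of the range. The median fold of the 676 upstream peaks was 21.3 (95% interval 21.3 to 22.2), with a median of 53 tags and a score of 69.7. The difference in median fold, downstream minus upstream, was -0.275 (approximate 95% interval -0.97 to 0.42). That interval was built from the widths of the intervals of both medians, as if they were symmetric. The upstream one lies wholly at or above its median, so the interval of the difference is only rough. In the upper range, 119 upstream peaks (17.6%, 14.8 to 20.7) reached 30-fold and their maximum was 255, against 81.91 on the downstream side. The difference in medians was -0.81 with a length limit of 1500 bp, -0.77 without one, -0.59 for peaks with a single listed gene and -2.0 for peaks at or above the median score. Single-gene promoter peaks over 2000 bp long had a median fold of 17.5 (n = 373), or 17.7 for the 224 of them centred downstream, with a median of 108 tags for the latter. No test was made of these differences, since the peaks come from 1 pooled data set. The intervals cover the spread over peaks only and not that between libraries.

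**Figure D2:**
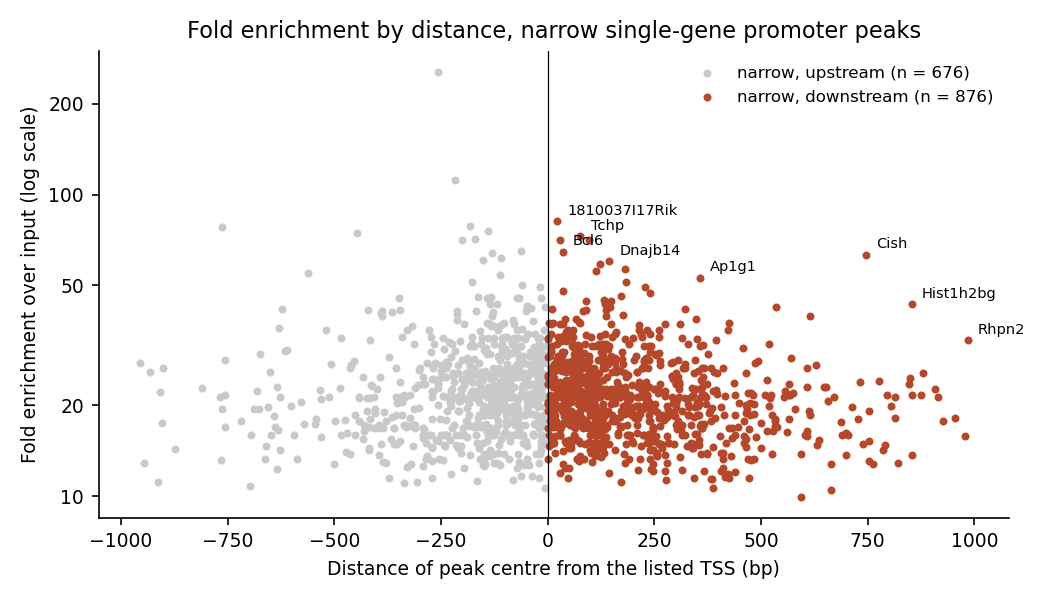
Fold enrichment over input (log scale) against the distance of the peak centre from the listed TSS in bp, positive downstream, for the 876 downstream peaks (red) and 676 upstream peaks (grey), 1 point per peak. Downstream peaks of any fold crowd near the TSS, with 293 of 876 centred within 100 bp, and 44 of the 113 of at least 30-fold. Cish at 746 bp and Hist1h2bg at 853 bp are among the 6 of at least 30-fold beyond 500 bp.

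Most downstream peaks straddled the TSS. The listed TSS was inside the peak in 848 of 876 (96.8%, 95.4 to 97.9), a share that the limits on distance and length largely set. It was inside in 654 of 676 upstream peaks (96.7%). The median downstream peak ran from -476 to 864 bp from the listed TSS. Centres lay a median of 165 bp downstream, with quartiles of 72 and 313.5. The gene's strand was known for 818 peaks, and there the summit, the position of highest tag pile-up, had a median of 94.8 bp and quartiles of -26.9 and 250. The summit was upstream of the TSS in 246 (30.1%, 26.9 to 33.3), although the centre was downstream by choice. Of the 616 upstream peaks with a known strand, 464 (75.3%) had an upstream summit.

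The downstream peaks had a tail of far summits. The summit was more than 500 bp downstream in 105 of 818 (12.8%), and in 0 of 616 upstream peaks, a contrast that the choice by centre largely sets. The farthest summit from the listed TSS was that of Slc39a10, a zinc transporter gene, at 1227 bp, and that of Rhpn2 lay at 1129.5 bp. Pafah1b1 had its summit at 1042 bp. Within 250 bp of the TSS lay the summits of 593 peaks (72.5%), close to the 451 of 616 (73.2%) of the upstream peaks.

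**Figure D3:**
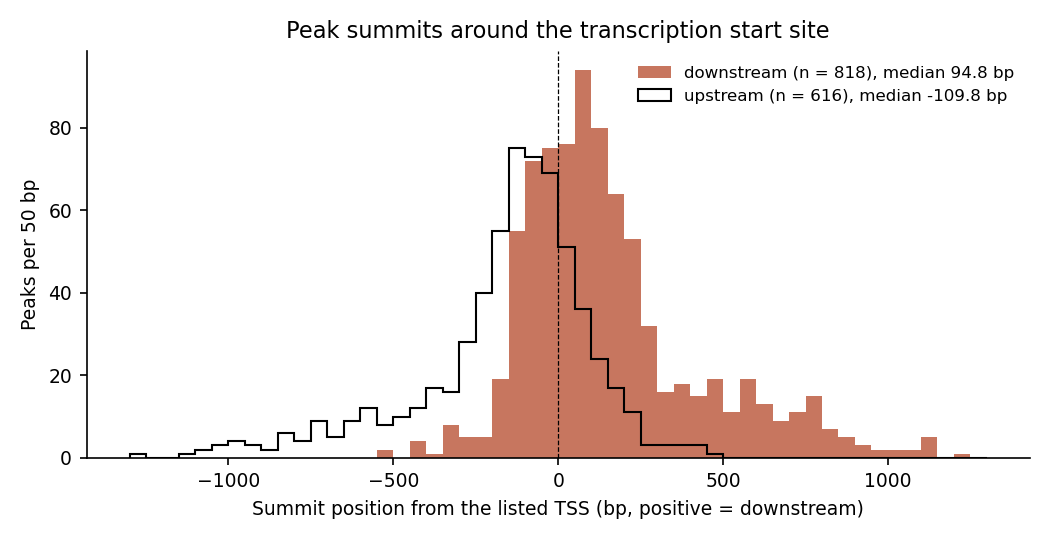
Peaks per 50 bp by the position of the summit from the listed TSS in bp, positive downstream, for downstream peaks (filled, n = 818) and upstream peaks (outline, n = 616) with a known strand. The medians are 94.8 and -109.8 bp, and the downstream peaks show a shoulder beyond 500 bp.

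The label downstream depends on the TSS the list used. A RefSeq gene start was found for 703 of the 876 (80.3%), within 100 bp of the listed TSS for 616 of them and over 1000 bp from it for 11. Measured from the gene's RefSeq start, the peak centre was still downstream in 636 of 703 (90.5%, 88.1 to 92.5) and the summit in 452 (64.3%), with a median summit of 75 bp. The summit lay within 100 bp of that start in 271 peaks (38.5%) and within 250 bp in 514 (73.1%).

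Enrichment was lower farther from the TSS. The median fold was 21.7 for the 293 peaks centred within 100 bp and 21.5 for the 203 at 101 to 200 bp. It was 16.8 for the 53 at 401 to 500 bp and 19.2 for the 80 beyond 500 bp. A fold of at least 30 was found in 44 of 293 (15.0%) nearest the TSS and in 6 of 80 (7.5%) beyond 500 bp. Length moved in the opposite direction, from a median of 1228 bp nearest the TSS to 1504 bp beyond 500 bp, and its part in the lower fold was not tested.

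Short peaks had the higher folds. The 105 peaks of at most 1000 bp had a median fold of 25.7 from 33 tags, and 31 of them (29.5%) reached 30-fold. The 132 peaks of 1751 to 2000 bp had a median fold of 18.5 from 80 tags. Across the 876 peaks, Spearman's rho was -0.33 between length and fold, 0.78 between length and tags and 0.33 between length and score. It was -0.18 between distance and fold. These describe peaks of the same pooled libraries, and length, tags and fold share the same reads.

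The limits of the choice fell within a continuum. Snrpe, a spliceosome gene, and Dazap2 had centres at 0 bp with 20.52-fold and 20.21-fold, while Ctdp1, just outside at -1 bp, had 18.09-fold and Actl6b, a neuronal chromatin remodelling subunit, at -3 bp had 27.58-fold. At the far limit, Rhpn2 at 984 bp had 32.98-fold and Ddx3x, an RNA helicase, at 977 bp had 15.84-fold, and the next peaks out, H2-M5 at 1109 bp and Slc27a1 at 1129 bp, had 12.09-fold and 10.64-fold. At the length limit, Cux1 with 2000 bp had 19.46-fold and Rapgefl1 with 1999 bp had 15.36-fold, beside Npepps with 14.18-fold and Lrp6 with 21.28-fold, both 2001 bp long.

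The promoters under these peaks were CpG-rich. Over the 703 RefSeq windows of 300 bases the median GC content was 63.7%, against 56.3% for 21262 protein-coding promoters. The median ratio of observed to expected CpG was 0.798, against 0.567. It was at least 0.6, a usual mark of CpG islands, in 585 windows (83.2%, 80.2 to 85.9), against 47.7%. Among the 90 windows of peaks of at least 30-fold, 68 (75.6%, 65.4 to 84.0) passed 0.6. Upstream peaks had RefSeq windows for 529 of 676 (78.3%), under the 80% set for such a check, which is void for them. In those 529 the median GC content was 66.3%, the median CpG ratio 0.839 and the share at 0.6 or above 88.7%. These values are a description only, and CpG-rich promoters are not shown to be particular to the downstream side.

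The Bcl6 and STAT core was about as common as at other promoters. TTCNNNGAA, which reads the same on both strands, occurred in 51 of 703 windows (7.25%, 5.45 to 9.43), against 7.69% of protein-coding and 8.30% of all 32851 promoters. The longer form TTCCTNGAA, searched on both strands and contained in the first, occurred in 5 windows (0.711%), against 1.41% and 1.59%. Those 5 were 1810037I17Rik, Cish, Zfp458, Snrnp27, a spliceosome gene, and Ap3b2, a neuronal vesicle adaptor subunit. Unlike in the first 3, the longer form lay 156 bp from the summit for Snrnp27 (17.73-fold) and 602 bp for Ap3b2 (14.89-fold). In the 529 upstream windows, given only as a description, the core was in 33 (6.24%) and the longer form in 9 (1.70%). GC content differed between these groups of windows, and its part in the shares of both forms was not tested. Similar shares therefore do not show whether the core is enriched for the base content. Peaks with a core had a median fold of 21.3 (n = 51) and those without 20.4 (n = 652), and 9 of 51 against 81 of 652 reached 30-fold.

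The window held the summit for only 285 of the 703 peaks, and 22 of these 285 (7.72%, 4.90 to 11.5) held a core. The core lay within 100 bp of the summit in 14 of 51 windows, whose peaks had a median of 20.6-fold and ran from 11.61 to 81.91, with 7 of 14 below the median of all downstream peaks. Icam1, an adhesion molecule gene, had TTCCCGGAA 17 bp from its summit at 27.93-fold, and Cdca7, a cell cycle gene, had TTCATAGAA 25 bp away at 23.56-fold. Irf1, an interferon regulatory factor gene, had TTCCCCGAA 9 bp from its summit at 15.07-fold, Rraga, a GTPase of amino acid sensing, had TTCTTAGAA 33 bp away at 12.16-fold, and Ddah2 had TTCAGGGAA 49 bp away at 11.61-fold. Gcdh, in contrast, had TTCCACGAA 213 bp from its summit. The summits themselves were not searched, so these shares say nothing of cores elsewhere in the peaks.

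Several general promoter elements had other shares than at protein-coding promoters. The GC box GGGCGG, searched like all others on both strands, was found in 73.5% of windows (70.1 to 76.8), against 46.2% of protein-coding promoters. The ETS core CCGGAA was in 27.0% (23.8 to 30.5) against 18.7%, the NRF1 sequence in 12.2% (9.90 to 14.9) against 6.38%, and the E-box CACGTG in 11.7% (9.39 to 14.3) against 7.84%. The Zbtb33-like TCTCGCGA was in 3.13% (1.97 to 4.70) against 1.41% and the CRE TGACGTCA in 3.56% (2.31 to 5.21) against 2.23%. The YY1 core GCCATNTT was in 7.40% (5.57 to 9.59) against 6.37%, which lies inside its interval, so no difference is shown for it. The TATA box TATAAA was in 6.12% (4.46 to 8.15) against 12.6%, and the CCAAT box CCAAT in 32.4% (29.0 to 36.0) against 38.2%. In the 529 upstream windows the GC box was in 82.0%, the ETS core in 32.9%, the E-box in 12.5%, the YY1 core in 10.2%, the NRF1 sequence in 9.64% and the TATA box in 3.40%, so none of these shares is shown to be particular to the downstream peaks. GC content differed between these groups of windows, as given above, and its part in the shares was not tested.

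**Figure D4:**
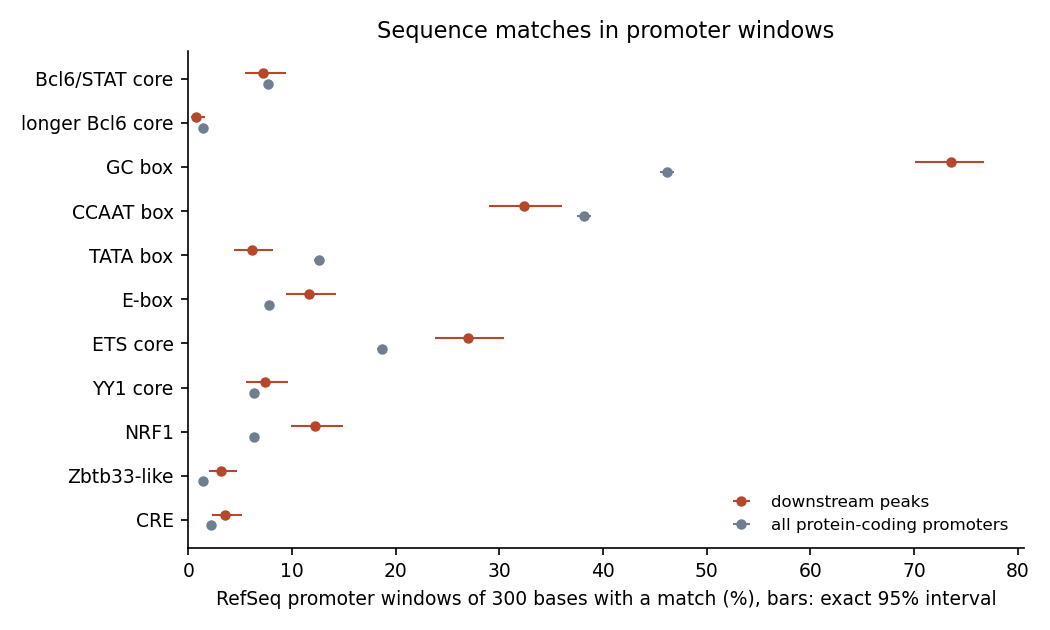
Share of RefSeq promoter windows of 300 bases that hold each of 11 sequences, in percent, for the 703 windows of downstream peaks (red) and 21262 protein-coding promoters (grey), with exact 95% binomial intervals. The GC box stands at 73.5% against 46.2%, while the Bcl6 and STAT core stands at 7.25% against 7.69%.

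Of 21896 protein-coding genes, 868 had a downstream peak (3.96%), and no gene had more than 1. These genes had a median length of 21.5 kb (n = 869), against 26.7 kb for genes of upstream peaks (n = 672). The summit lay inside the gene for 652 of 869 genes (75.03%) and the centre for 834 (96.0%). The choice of centres at or downstream of the TSS largely sets the latter share. Of the 876 genes, 198 were in at least 1 of 39 gene lists, and the counts below are to be read against 3.96%. Upstream peaks were found at 666 protein-coding genes (3.04%), against which counts of upstream peaks are to be read. Genes may also be listed for peaks of other kinds, so neither count is the extent of Bcl6 binding. Counts of peaks of any kind include distant peaks, and no share over all genes is given for them here, so they do not set any list apart. The intervals cover counting of genes only, and the lists were chosen with earlier results of these data known.

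Of 49 listed BTB factor genes, relatives of Bcl6, 3 had a downstream peak, namely Bcl6, Zbtb34 at 21.61-fold and Nacc1, a BTB corepressor gene, at 13.16-fold. The list was not complete, and Zbtb3, a BTB zinc finger gene outside it, also had one, at 17.73-fold. Of 31 Bcl6 corepressor and partner genes, Sin3a, the scaffold of a histone deacetylase complex, had 25.65-fold with 108 tags, and Eed, a Polycomb subunit, had 21.74-fold with 84 tags. Of 24 genes of the Socs, STAT and Pim group, Cish, Socs6 at 23.64-fold and Pim3 at 11.52-fold had one. Cish was also the only gene with such a peak among 25 lymphoid Bcl6 targets, and it is therefore counted in both groups. Upstream peaks were found at 1 of the 49, 1 of the 31, 3 of the 24 and 1 of the 25 genes.

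In the signalling pathways, 4 of 40 Notch genes had a downstream peak (10.0%, 2.79 to 23.7) and 0 of 40 an upstream peak. Another 4 lists also had 0 upstream peaks. The 4 with a downstream peak were the receptor Notch2 at 21.35-fold, the ubiquitin ligase Dtx2 at 20.21-fold, the feedback inhibitor Nrarp at 19.15-fold and Lfng, the glycosyltransferase that modifies Notch, at 18.24-fold. Of 70 Wnt genes, 4 had one, the ligand Wnt5b at 19.7-fold, the receptor Fzd5 at 24.6-fold, Csnk1a1, a kinase of the β-catenin destruction complex, at 15.07-fold and Znrf3, which removes Wnt receptors, at 13.3-fold. Smo, the hedgehog signal transducer, at 20.85-fold, was the single case among 21 hedgehog genes, in cells that had been treated with a Smo inhibitor earlier in differentiation. An upstream peak was found at 7 of the 70 Wnt genes and 2 of the 21 hedgehog genes, more than had a downstream peak.

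Growth factor and BMP pathways had 6 such genes each. In the FGF, IGF and Ras list (6 of 49, 12.2%, 4.63 to 24.8) these were the receptors Insr at 41.37-fold and Igf1r at 23.64-fold, the adaptors Frs2 at 20.52-fold and Grb2 at 19.0-fold, and the kinases Braf at 22.34-fold and Mapk3 at 31.63-fold. In the BMP and TGF-beta list (6 of 45, 13.3%, 5.05 to 26.8) they were the antagonist Nog at 23.64-fold, the receptor Acvr1b at 20.26-fold and the ubiquitin ligase Smurf1 at 27.67-fold, with the signal transducers Smad5 at 44.61-fold, Smad1 at 17.73-fold and Smad2 at 13.3-fold. The peaks of these lists had medians of 22.99-fold and 21.95-fold, near the 21.0 of all downstream peaks. Upstream peaks were found at 4 of the 49 and 4 of the 45 genes.

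Cell cycle genes had shares on either side of 3.96%. Of 49 genes of G1/S control and checkpoints, the pocket protein genes Rb1 at 23.47-fold and Rbl1 at 16.86-fold and the p53 inhibitor Mdm4 at 20.69-fold had one (6.12%). The cohesin gene Smc3 at 28.72-fold was the case among 40 mitosis genes (2.5%). Of 57 replication and repair genes, Nbn at 20.23-fold, Rad9a at 18.09-fold, Rfc5 at 16.87-fold and Pold1 at 13.96-fold had one (7.02%). Upstream peaks were found at 5 of the 49, 1 of the 40 and 1 of the 57 genes.

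Of 32 cortical progenitor genes, 3 had a downstream peak (9.38%, 1.98 to 25.02). Emx1, a homeobox gene of the dorsal telencephalon, had 37.43-fold with 45 tags, and Sox9, a progenitor transcription factor, 33.24-fold with 67 tags. They differed in position, with the summit 44.5 bp downstream of the listed TSS for Emx1 and 687 bp for Sox9. Both the summit and the centre of the Emx1 peak lay outside the gene as annotated in RefSeq. Cux1, an upper-layer neuron gene, was the case among 32 neuron genes, and Plxna1, a semaphorin receptor, at 28.37-fold among 52 axon guidance genes. Tbx3 at 17.29-fold was the case among 22 pluripotency genes. None of 29 mesoderm and endoderm genes (upper limit of the 95% interval 11.9%), 18 fibroblast genes (18.5%) or 33 tRNA synthetase genes (10.6%) had a downstream peak. A peak of any kind was listed for 15 of the 22 pluripotency, 11 of the 32 progenitor and 5 of the 29 mesoderm and endoderm genes. Without a share over all genes beside them, these counts do not show a pattern by cell type.

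The immediate early and CREB list had the highest share of the lists, 6 of 26 (23.1%, 8.97 to 43.6), against 1 of 26 with an upstream peak. It included the phosphatase gene Dusp1 at 24.18-fold, the CREB coactivator Crtc2 at 23.94-fold and the CRE-binding factor Atf2 at 18.24-fold. The immediate early genes Ier5, Egr1 and Fos followed at 16.55-fold, 16.49-fold and 11.12-fold. For Egr1 the summit and the centre lay outside the gene as annotated in RefSeq. None of the 6 reached 30-fold, against 12.9% of all downstream peaks, a count too small to set the list apart. Of the 26 genes, 17 were listed for a peak of any kind.

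Histone genes had 11 of 78 (14.1%, 7.26 to 23.8), against 0 with an upstream peak and 47 with a peak of any kind. The highest folds were those of Hist1h2bg at 43.44-fold with 101 tags, Hist1h1a at 39.55-fold with 216 tags and Hist1h4b at 37.48-fold with 68 tags. They were followed by Hist1h4c at 28.72-fold, Hist1h4f at 25.53-fold, Hist1h3h and H2afy2 at 18.24-fold, Hist1h3i at 18.07-fold, Hist1h4d at 14.75-fold, Hist2h4 at 13.92-fold and Hist1h3d at 13.68-fold. Their centres lay 374 to 954 bp from the TSS, with a median of 632 bp against 165 bp for all downstream peaks, and 10 of 11 had the summit more than 400 bp downstream. Of these genes, 10 are under 1 kb long (375 to 745 bp), all but H2afy2, the macroH2A2 gene. In 9 of the 10 the summit, and in 7 the centre, lay outside the gene. In 8 of the 11, 9 of which are on chromosome 13, another peak was within 5 kb. Many histone genes, though not H2afy2, are near-identical copies, and the handling of reads that match several copies is not stated in the labels or headers. The values of single histone genes are therefore uncertain, and the effect of such reads was not tested.

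Genes of protein synthesis were also represented. Of 85 cytosolic ribosomal protein genes, 66 had a peak of any kind, 2 an upstream peak and 11 a downstream peak (12.9%, 6.64 to 22.0). After Rpl22 came Rpl11 at 33.55-fold, Rpl28 at 26.03-fold, Rpl27 at 23.4-fold, Rpl39 at 21.28-fold and Rps10 at 20.39-fold, and the lowest was Rps9 at 14.99-fold with 106 tags. Ribosomal protein genes have many processed pseudogenes, whose effect on these tag counts was not tested. Mitochondrial ribosomal protein genes had 5 of 78, led by Mrpl42 at 37.75-fold and Mrps35 at 29.35-fold, and translation factor genes 5 of 74, led by Eif1 at 20.61-fold with 125 tags and Eif4b at 19.76-fold.

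Chromatin modifier genes had 6 of 85 (7.06%), against 12 with an upstream peak and 54 with a peak of any kind. The acetyltransferase genes Kat5 and Kat6a had 39.89-fold and 35.55-fold, the histone H3 methyltransferase gene Suv39h1 35.46-fold, Brd7 and the chromatin remodeller Atrx 21.28-fold each, and the maintenance DNA methyltransferase gene Dnmt1 17.02-fold. Of 104 RNA polymerase, general factor and Mediator genes, 9 had a downstream peak (8.65%). Gtf2h2 at 30.14-fold, Taf10 at 27.93-fold and Polr1b at 25.82-fold were among the highest. Ubiquitin system genes had 31 of 393 (7.89%, 5.42 to 11.0), led by Rnf187, the deubiquitinase gene Usp12 at 37.23-fold, Kctd5 at 34.04-fold and Fbxl2 at 31.9-fold.

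The other lists gave the following counts. Heat shock and chaperonin genes had 6 of 85, led by Dnajb14 and Dnajc28 at 28.37-fold and including Hspa8 at 26.6-fold. Vesicle traffic genes had 13 of 207, none at 30-fold, with Sec63 and Trappc10 highest at 22.61-fold. Splicing genes had 6 of 107, with Prpf3 highest at 27.89-fold, and actin and tubulin genes 4 of 75, with Actn1 highest at 21.77-fold. Zinc finger genes named Zfp had 19 of 424 (4.48%), led by Zfp458 and Zfp202. Solute carrier genes had 15 of 375 (4%), led by the folate transporter gene Slc46a1 at 35.46-fold and the lactate transporter gene Slc16a1 at 33.49-fold. Forkhead genes had 2 of 44, proteasome genes 2 of 48, with Psmd11 at 30.89-fold, and oxidative phosphorylation genes 3 of 104, with Cox7a1 highest at 27.4-fold. Klf and Sp genes had 1 of 23, with Klf11 at 19.26-fold, housekeeping genes 1 of 25, and a list of Sox, Pou and selected homeobox families (such as Hox, Lhx, Nkx and Dlx) 1 of 123 (0.813%, upper limit 4.45), with Sox9. That list leaves out other homeobox genes, among them Emx1 and Cux1.

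**Figure D5:**
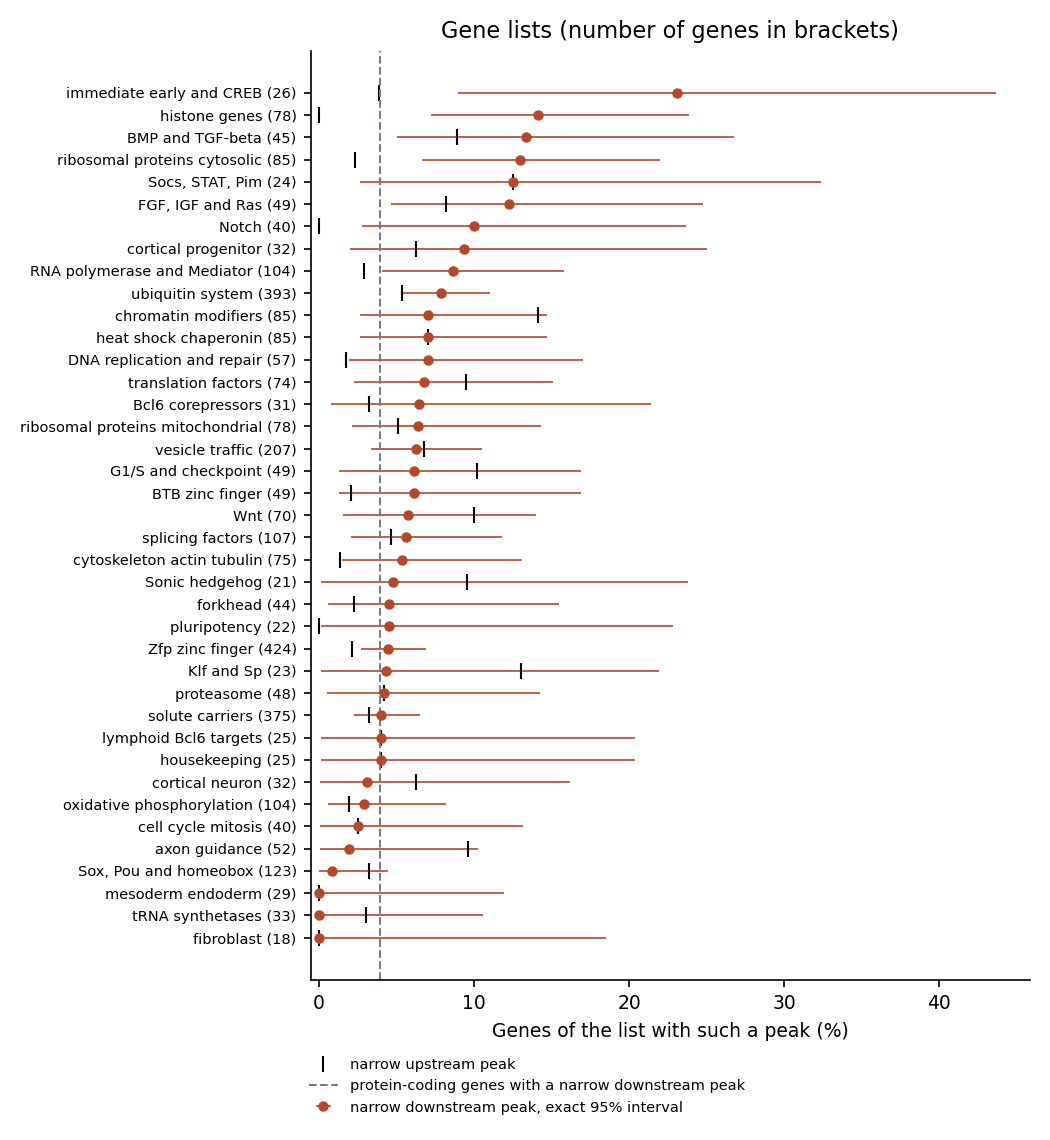
Share of the genes of each list with a downstream peak (red points, exact 95% binomial interval) and with an upstream peak (black ticks), in percent, with the number of genes in brackets and the dashed line at 3.96%. Immediate early and CREB genes (23.1%) and histone genes (14.1%) stand highest, and 5 lists, histone, Notch, pluripotency, mesoderm and endoderm, and fibroblast genes, have no upstream peak.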

How the data were processed

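Per the submitters' processing notes, reads were aligned with Bowtie to mm10, and its version and settings are not given in the sources used here. Peaks were called with MACS 1.4.2 from pooled ChIP and pooled input tags at a p-value cutoff of 1e-05, keeping at most 1 tag per position, per the file headers. The pooled ChIP had 11718276 tags after filtering and the pooled input 5048582, per the file headers. Before filtering there were 56836596 and 12808138 tags, with redundant rates of 0.79 for the ChIP and 0.61 for the input. Most tags of both groups were thus removed as duplicates, which limits the tag and fold values. The deposited tag counts are whole pooled ChIP tags per peak, fold enrichment is the authors' ratio over local input, the deposited score is taken as −10 log10 p, and the authors give the FDR in percent. A spreadsheet error replaced the name of the score column, and its meaning was inferred from the column order and from a minimum at the stated cutoff. The gene list was deposited as output of GREAT 3.0.0, with signed distances in bp from the TSS to the peak centre, per the file headers.

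Both tables were joined by peak number with Python 3.11.15 and pandas 2.3.3, no value was filtered, and 0 columns belonged to other samples. All peak coordinates are mm10. Gene strand came from RefSeq promoter windows or, failing that, from the gene end nearest the listed TSS. Symbols matched a RefSeq gene table of GRCm38.p6 for 870 of 876 genes, by current or unique older symbol, and promoter windows matched for 703. Windows for upstream peaks matched for only 529 of 676 (78.3%), under 80%, so the check is void for them and their values are given only as a description. Family lists were matched by symbol pattern. Exact binomial and distribution-free intervals of the median at 95% were computed with SciPy 1.17.1, and the code was tested on simulated data. No test was made, since all values are pooled.

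Members and lists were chosen with earlier results of these data known. Genes were named by a rule: the 15 highest folds, the 10 highest scores, the 5 most tags, lowest folds and nearest and farthest centres, the peaks beside each limit, up to 6 genes per list by fold, and Bcl6, Hes1, Hes5, Ccnd1 and Ccnd2. Genes with a core near the summit, with a far summit, and all histone genes were named after their values were seen. Some genes that the rule names are not reported here. Alternatives were other length and distance limits, stricter peaks, a single listed gene, other fold limits, the 150 bases nearest the gene start, and, added after seeing the data, the RefSeq start and another source of strand.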

Additional observations from a re-analysis of the deposited data

How the results depend on the processing

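With a length limit of 1500 bp the number of downstream peaks was 572 in place of 876, the median fold 21.7 and the share with an FDR of at most 5% 100%. With only peaks at or above the median score there were 378, with a median fold of 23.9 and 25.1% at 30-fold, and the median lay 2.00 below that of upstream peaks (difference -2.0, against -0.275). The share past the fold limit was 54.6% at 20-fold and 1.37% at 50-fold. The TSS was inside the peak for 100% with a distance limit of 500 bp, and at least 100 bp inside it for 94.98%. The median summit was 75 bp from the nearest RefSeq start, an alternative added after seeing the data, against 94.8 bp from the listed TSS.

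In the 150 bases nearest the gene start the Bcl6 and STAT core was in 2.28% of windows, against 3.48% of protein-coding promoters, and the longer core in 0.142%. The GC box was in 63.7%, the CCAAT box in 21.1%, the TATA box in 2.85%, the E-box in 8.11%, the ETS core in 19.8%, the YY1 core in 5.26%, the NRF1 sequence in 9.53% and the Zbtb33-like sequence in 1.85%. A shorter window holds fewer matches by construction. The other 35 values under alternatives moved by less than their intervals, or by less than 1.5 times for a count.

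No paired analysis was possible because the deposited values pool the 3 libraries of each group, so the replicate numbers in the labels reach no value, and no replicate could be left out. Fold is coarse at this input depth: the 876 peaks take 355 distinct values, and 33 share 21.28. The summits could not be searched for motifs, as no genome sequence was used here.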

Other observations

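Most genes with a downstream peak had no other peak. Of the 876 genes, 701 (80.0%) were listed for no further peak, 143 for exactly 1 and 32 for 2 or more. At least 1 further peak had a higher fold than the downstream peak in 111 of the 175 genes with any (63.4%, 55.8 to 70.6). Genes with several further peaks were compared by the strongest. Of all peaks over 1 kb from any TSS or with no gene, 22.5% reached 30-fold, against 12.9% of downstream peaks. Mthfd1l, a mitochondrial folate enzyme gene, had 17.38-fold at its promoter and 129.57-fold 277.84 kb downstream, and Lpp, an adhesion protein gene, had 23.05-fold and 107.71-fold 656.97 kb downstream. Cep68, a centrosome gene, had 23.94-fold and 82.07-fold 71.489 kb upstream. Slc2a1, the Glut1 glucose transporter gene, was listed for 4 further peaks, the strongest of 38.56-fold 19.819 kb upstream, beside 13.3-fold at its promoter. The listing of a distant peak to a gene follows distance alone. Another peak lay within 10 kb for 128 downstream peaks (14.6%, 12.3 to 17.1), 68 upstream peaks (10.1%, 7.90 to 12.6) and 887 of all 3878 peaks (22.9%).

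The share of downstream peaks at 30-fold differed between chromosomes, each with few such peaks. Chromosome 8 held 5 of the 15 with the highest fold, Gcdh, Ap1g1, Dctn6, Ccdc110 and Sorbs2, and 14 of its 61 downstream peaks (22.95%) reached 30-fold, against 12.9% of all downstream peaks. Over all peaks of chromosome 8, 43 of 227 (18.9%) reached 30-fold, near the 17.6% of the whole set. Shares like that of its downstream peaks were found on chromosome X (2 of 9, 22.2%) and chromosome 13 (7 of 33, 21.2%). On chromosome 1, 1 of 38 downstream peaks reached 30-fold, against 26 of all its 170 peaks (15.3%). The chromosomes were singled out after their values were seen, and no test was made.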
